A study of Mus musculus with 6 samples.

Results

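The carbonic anhydrases are a family of zinc enzymes that turn carbon dioxide and water into bicarbonate and a proton, and back. The cytosolic members Car1, Car2 and Car3, the membrane-bound members Car4, Car12 and Car14 and the secreted member Car6 differ in where in or on the cell they work, and Car8 is a related protein that lacks the enzyme activity. Car2 is an abundant protein of red blood cells, where it works beside haemoglobin and the anion exchanger band 3 in carrying carbon dioxide, but it is also made by other cells, among them osteoclasts, glia and several secretory epithelia. Car4 is known from the lung as an enzyme on the surface of capillary endothelium.

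Members were all probe sets whose 1 gene symbol in the array's annotation is Car followed by a number. A probe set is a group of short oligonucleotides on the array designed against 1 transcript. The rule found 8 of the 8251 genes with a probe set of 1 symbol, with 9 of the 12422 probe sets other than controls. They were Car1, Car2, Car3, Car6, Car8, Car12 and Car14 with 1 probe set each, and Car4 with 2, of which 1 is of a design less specific for its transcript. Car7 and Car11 were not analysed here, because no probe set is annotated with either symbol in the table that was used. The family was chosen by a measured value, the branching against non-branching difference of Car2, which was already known, so that difference is given as a description with no test.

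The study measured total RNA from 2 dissected regions of the mouse embryonic lung at stage E11.5 on single-sample arrays. The branching region was taken from the right and the left lung. The non-branching region was made up of the main bronchi of both sides with part of the trachea. Each region has 3 arrays, named here by region and replicate. The replicate numbers are the same in both regions, and the labels do not tell if arrays of the same number share lungs. The labels name no strain, genotype or treatment. They do not tell if replicates are different embryos, and the p-values therefore cover the spread among these 6 arrays, part or all of which may be technical.

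The values are deposited signal intensities on a linear scale, and array medians ran from 212 to 229. The background level used below is 147.1, below which lay 95% of the 114 values that 19 control probe sets for transcripts of bacteria and yeast gave on the arrays. All 16 markers of the lung tip and of epithelium in general that have a probe set were above that level on at least 1 array. Of these, Epcam, Krt19 and Spint2 passed it on only 1 array, at 151.5, 176.7 and 177.1, which does not show that they were detected. No correlation across arrays is given, because 3 arrays per region are too few to test one within a region.

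Car2 signal was higher in the branching region. Its signal was 1394, 1348 and 1404 on the 3 branching arrays, against 530.0, 450 and 482 on the 3 non-branching arrays. The branching arrays lay close together and all of them were above every non-branching array. The means were 1382 ± 29.8 in branching and 487 ± 40.3 on the non-branching arrays (SD, n = 3 each), a log2 difference of 1.51 ± 0.14 (branching minus non-branching, SE) or 2.84-fold. Leaving out any 1 array kept that difference between 1.45 and 1.57. Of the 6 member probe sets bright enough to be tested, 1 was called at a limma adjusted p under 0.05, that of Car2, where 2.03% of all 9316 probe sets tested were called, 0.902% higher and 1.13% lower in branching. Car2 was also the 1 member of the 9 whose regions did not overlap, a pattern with branching above that 9.79% of all probe sets tested showed. Since the call and the order of the arrays were known when the family was chosen, nothing is read from these counts.

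**Figure D1:**
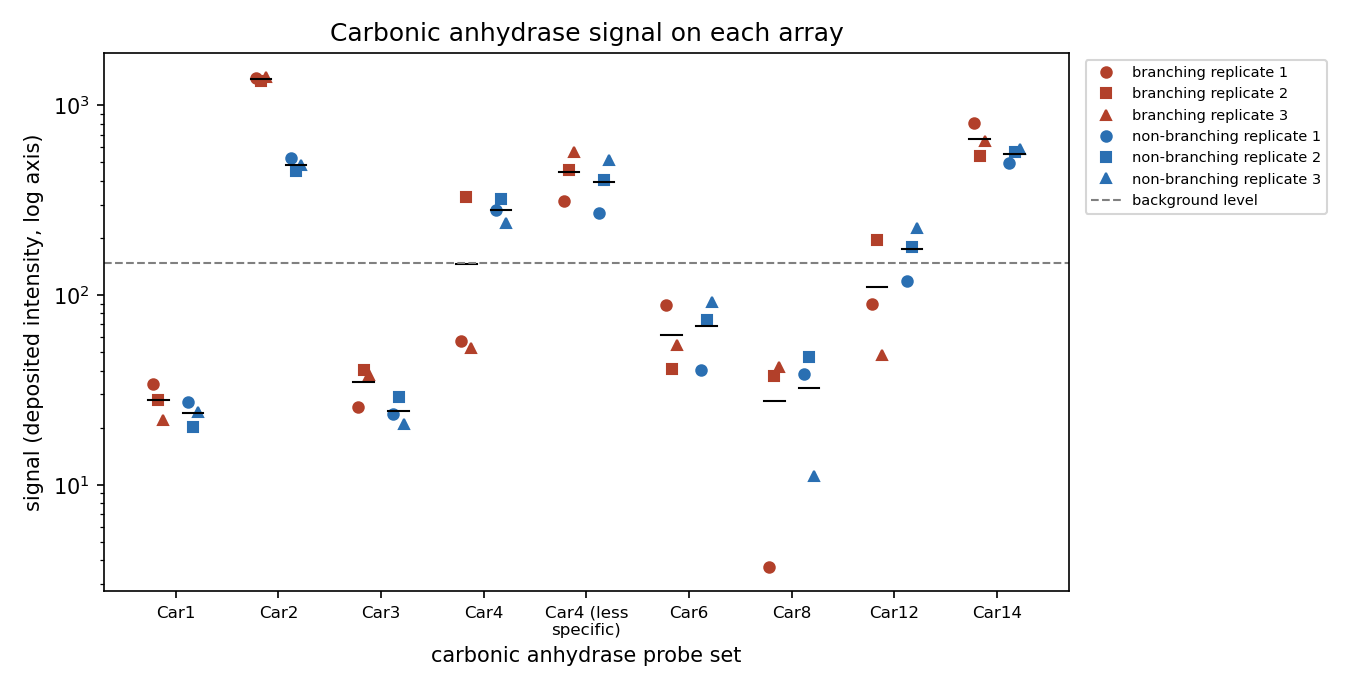
Signal of each carbonic anhydrase probe set on each array (log axis, deposited intensity). Red points are the 3 branching arrays and blue points the 3 non-branching arrays, with the marker shape giving the replicate number, black bars the group means and the dashed line the background level of 147.1. The branching points of Car2 sit between 1348 and 1404, above all its non-branching points, and Car1, Car3, Car6 and Car8 lie below the dashed line on every array.

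The other cytosolic members were at background. Car1, the other carbonic anhydrase known from red blood cells, had a signal of 34.0, 28.0 and 21.9 on the branching arrays, against 27.3, 20.1 and 24.3 on the non-branching arrays. Car3, known from slow skeletal muscle, fat and liver, had 25.8, 40.3 and 38.0 on the branching arrays, against 23.6, 29.1 and 20.8 on the non-branching arrays. For both genes the regions overlapped and all 6 arrays were below background, so no fold is given, and neither probe set was bright enough to be tested. In the RefSeq gene table (GRCm38.p6), Car13, Car1, Car3 and Car2 follow each other on 1 chromosome and are the 4 protein-coding genes of that stretch. Of the 3 of these neighbours with a probe set here, Car2 was above background and Car1 and Car3 were not.

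Among the membrane-bound members, Car14, an enzyme with its active site outside the cell, was above background on all arrays. It had 805, 544 and 651 on the branching arrays, against 499, 569 and 591 on the non-branching arrays. The regions overlapped, with branching replicate 2 below 2 of the non-branching arrays. The difference of 0.25 ± 0.19 on the log2 scale (SE, 95% interval -0.18 to 0.69) did not pass (limma adjusted p = 0.611).

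Car4 was read differently by its 2 probe sets. The more specific one had 57.0, 329 and 52.8 on the branching arrays, against 282, 320 and 241 on the non-branching arrays. Branching replicates 1 and 3 were thus below background while replicate 2 was as bright as the non-branching arrays. The log2 difference was -1.48 ± 0.66 (SE) and did not pass (limma adjusted p = 0.338). Without branching replicate 2 it passed (limma adjusted p = 0.0428), and the 2 branching arrays left were then at least 1.90-fold lower than the non-branching arrays, a bound set by the background level. The less specific probe set had 314, 459 and 569 on the branching arrays, against 271, 403 and 514 on the non-branching arrays. These ranges overlapped almost fully, and the difference of 0.18 ± 0.31 (95% interval -0.51 to 0.88) did not pass (limma adjusted p = 0.844). The 2 probe sets differ in sign, and the direction of Car4 is not settled by these arrays.

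Over the same arrays markers of endothelium, the cells that carry Car4 in the lung, had mostly negative differences. Of 11 tested, 9 had a negative difference, where 4699 of all 9316 probe sets had one. Of the 11, 1 fell (9.09%, against 2.03% of all probe sets called), that of Vwf, which encodes von Willebrand factor (limma adjusted p = 0.00851, and 0.0604 without non-branching replicate 2). An unadjusted p under 0.05 was reached by 3 of the 11, which besides Vwf were Tie1 (-0.90 ± 0.23, limma adjusted p = 0.0910) and Cldn5, which differed the other way (0.54 ± 0.21, limma adjusted p = 0.269), both named after their values were seen. The share of all probe sets with such a p was not counted. The unadjusted counts of this and later lists therefore have no background beside them. For scale, the more specific Car4 probe set had an unadjusted limma p of 0.0491 and an adjusted p of 0.338. The median difference of the endothelial list was -0.26 on the log2 scale, against -0.0046 over all probe sets tested, and its summed signal was 5072 to 5630 on branching arrays and 5851 to 6264 on non-branching arrays. Their part in the values of Car4 was not tested. In such bulk samples fewer cells of a type and less RNA per cell cannot be told apart.

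Car12, a membrane-bound enzyme of ion-transporting epithelia, was near background. It had 89.4, 194 and 48.6 on the branching arrays, against 119, 179 and 226 on the non-branching arrays. Above background were 1 branching and 2 non-branching arrays, and the regions overlapped. Its difference of -0.84 ± 0.56 (SE, 95% interval -2.11 to 0.43) did not pass (limma adjusted p = 0.560).

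Car6, the secreted enzyme of saliva, ranged from 40.7 to 88.6 on the branching arrays and from 40.2 to 92.5 on the non-branching arrays. Car8, which in the cerebellum binds the inositol trisphosphate receptor Itpr1, ranged from 3.7 to 41.7 on the branching arrays and from 11.1 to 47.2 on the non-branching arrays. Both were below background on every array, and no fold is given. Car6 was just bright enough to be tested and was not called. Car5a, a mitochondrial carbonic anhydrase whose symbol falls outside the rule, had 61.6, 121 and 120 on the branching arrays, against 133, 101 and 168 on the non-branching arrays, 5 of 6 at background (limma adjusted p = 0.742). Of the inositol trisphosphate receptor genes, Itpr2 was the 1 with a probe set, of a less specific design, and was not called (limma adjusted p = 0.242).

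Globins were compared with Car2 because both are abundant in red blood cells. The alpha-like embryonic globin gene Hba-x had a signal of 48817, 42295 and 42870.3 on the branching arrays, against 25015, 23827 and 26099 on the non-branching arrays. The embryonic beta-like globin gene Hbb-y had 22903, 22326 and 24287 on the branching arrays, against 12353, 11584 and 12206 on the non-branching arrays, by its more specific probe set. The alpha globin gene Hba-a1 had 33556, 29527 and 30130.3 on the branching arrays, against 16933, 17240 and 18632 on the non-branching arrays. All 3 genes were higher on every branching array than on any non-branching array.

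In log2 terms Hba-x rose by 0.84 ± 0.09 (SE, limma adjusted p = 0.00158), Hbb-y by 0.94 ± 0.08 (limma adjusted p = 7.18e-04) and Hba-a1 by 0.82 ± 0.08 (limma adjusted p = 0.00158). These 3 passed whichever array was left out, but not in a fit with no variance trend, where their adjusted p ran from 0.0885 to 0.115. The beta globin gene Hbb-b2 rose by 0.71 ± 0.12 (limma adjusted p = 0.0219), and the less specific probe set of Hbb-y, with means of 63392 in branching and 46283 in non-branching, by 0.45 ± 0.08 (limma adjusted p = 0.0214). Hbb-b2 passed in 1 of the 6 omissions of an array, and so did that probe set of Hbb-y. Another embryonic beta-like globin gene, Hbb-bh1, had 1562, 996 and 1873 on the branching arrays, against 1299, 1622 and 1069 on the non-branching arrays, and did not pass (difference 0.12 ± 0.24, limma adjusted p = 0.864). The pseudogene Hba-ps3 differed by -0.10 ± 0.12 (limma adjusted p = 0.757).

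Further globin probe sets are annotated with several globin symbols and belong to no single gene. The one for the beta globins of a less specific design had 8730, 7759 and 8142 on the branching arrays, against 4012, 4148 and 4353 on the non-branching arrays. It rose by 0.98 ± 0.09 (limma adjusted p = 0.00104), more than any globin probe set with 1 symbol. The one for the alpha globins differed by 0.36 ± 0.16 and did not pass (limma adjusted p = 0.348), and another for the beta globins was at background on all 6 arrays.

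Among the probe sets with 1 symbol, Car2, Hba-x, Hba-a1, Hbb-b2 and both probe sets of Hbb-y were thus higher on the same arrays. Those of Hbb-bh1 and Hba-ps3 overlapped between the regions. The difference of Car2 was larger than that of the globins. It exceeded that of each of the 7 globin probe sets with 1 symbol, by 0.56 on the log2 scale for the more specific probe set of Hbb-y and by 0.67 for Hba-x up to 1.61 for Hba-ps3. Over the beta globin probe set with several symbols that rose, the excess was 0.53, the smallest. The mean over the 6 listed globin probe sets, which leave out the pseudogene, was 0.65 higher in branching, and Car2 exceeded that by 0.86. Leaving out any 1 array kept this excess between 0.80 and 0.93. No p is given for it, because Car2 was chosen with its difference known. With quantile normalization the excess was 0.81, as Hba-x then differed by 0.97 and the less specific probe set of Hbb-y by 0.60. The brightest globin signals were far above those of Car2, and whether differences are compressed at such signals was not tested.

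Within the regions, Car2 and the globin mean ranked the arrays alike in branching and not in non-branching. On the branching arrays the log2 signal of Car2, as a deviation from its regional mean, was 0.01, -0.04 and 0.02 for replicates 1 to 3, and that of the globin mean was 0.04, -0.10 and 0.06. There both were highest in replicate 3 and lowest in replicate 2. The single globin probe sets did not all share that order. Hba-x, Hba-a1 and the less specific probe set of Hbb-y were highest in replicate 1 and Hbb-b2 in replicate 2. Hbb-bh1 and the more specific probe set of Hbb-y were highest in replicate 3. On the non-branching arrays Car2 deviated by 0.12, -0.11 and -0.01, and the globin mean by -0.02, 0.01 and 0.01. There Car2 was highest in replicate 1, where the globin mean was lowest. The globin mean moved over a range of 0.03 while Car2 moved over 0.24. In both regions the order of the globin mean leaned on Hbb-bh1, whose SD was 30.1% of its mean in branching and 20.9% in non-branching. On the non-branching arrays Hba-x, Hbb-b2 and the more specific probe set of Hbb-y were lowest in replicate 2, as Car2 was. Hba-a1 and the less specific probe set of Hbb-y were lowest in replicate 1, and Hbb-bh1 in replicate 3. With 3 arrays per region whether Car2 follows the globins within a region cannot be tested.

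**Figure D2:**
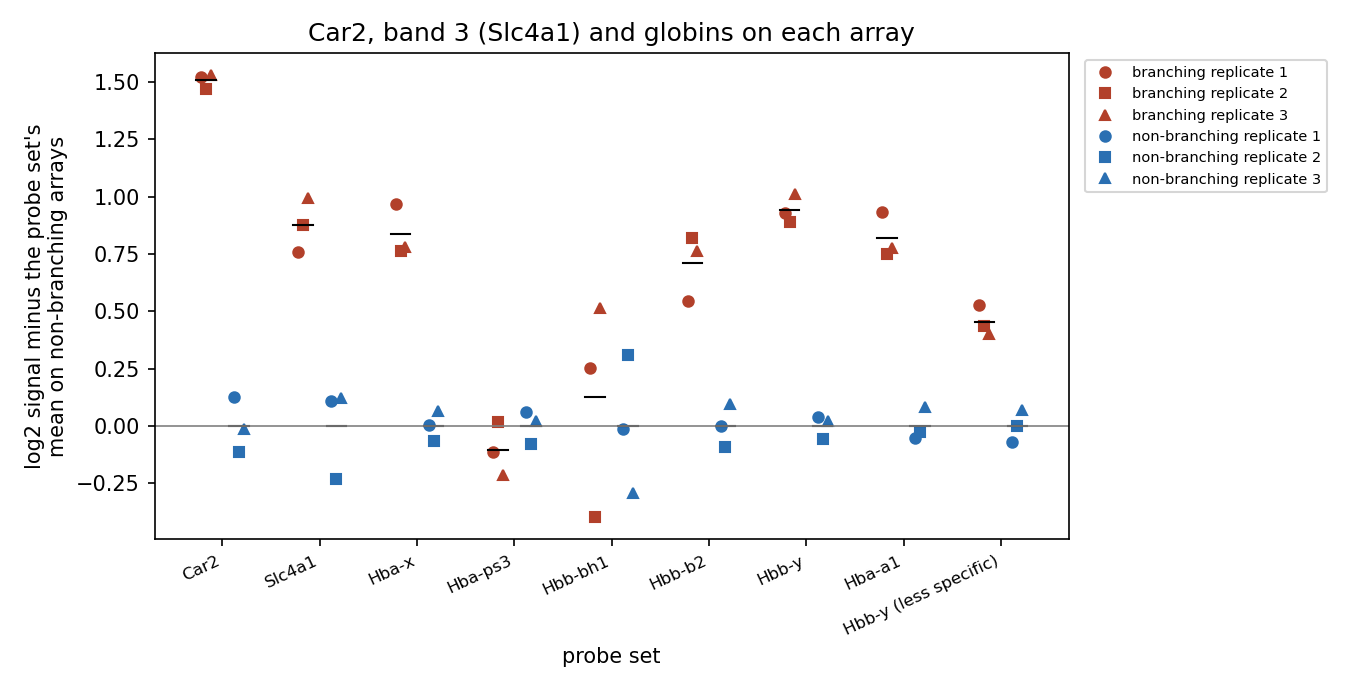
Log2 signal of Car2, of the red blood cell anion exchanger gene Slc4a1 and of the globin probe sets on each array, minus the mean of the probe set on the non-branching arrays. Red points are branching arrays, blue points non-branching arrays, marker shapes the replicate number and black bars the group means. The mean of Car2 in branching is at 1.51, above that of Slc4a1 at 0.88 and of each globin probe set plotted, those with 1 gene symbol, among which Hbb-y is highest at 0.94.

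In the list of erythroid genes without globins no gene passed the test. Of 21 erythroid genes other than globins that were tested, 4 had an unadjusted p under 0.05. By limma 0 of the 21 were called, where 2.03% of all probe sets were called. Their median difference was 0.18, with 13 positive and 8 negative. Their summed signal, over the 24 with a probe set, was 22770 to 23296 on branching arrays and 20553 to 21879 on non-branching arrays. Most of that sum came from Prdx2 (means 9920 in branching and 9340 in non-branching) and Tfrc (3429 and 3047). Both were read by less specific probe sets. The summed signal of the globins was 137366 to 152307 on branching arrays and 88487 to 95499 on non-branching arrays. The part of red blood cells in the difference of Car2 was not tested.

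Slc4a1, which encodes band 3, the chloride and bicarbonate exchanger of the red cell membrane, came nearest. It had 654, 711 and 770 on the branching arrays, against 417, 330 and 421 on the non-branching arrays. The regions did not overlap, but the difference of 0.88 ± 0.19 (SE) did not pass (limma adjusted p = 0.0526). With the dimmest 50% of probe sets left out it passed (limma adjusted p = 0.0327). Alad, a gene of haem synthesis, differed by 0.37 ± 0.12 and did not pass (limma adjusted p = 0.178). Urod, another gene of haem synthesis, differed the other way (-0.44 ± 0.19, limma adjusted p = 0.312). Rhag, read by a less specific probe set, differed by 0.64 ± 0.28 (limma adjusted p = 0.332). Urod and Rhag also had an unadjusted p under 0.05 and were named after their values were seen.

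**Figure D3:**
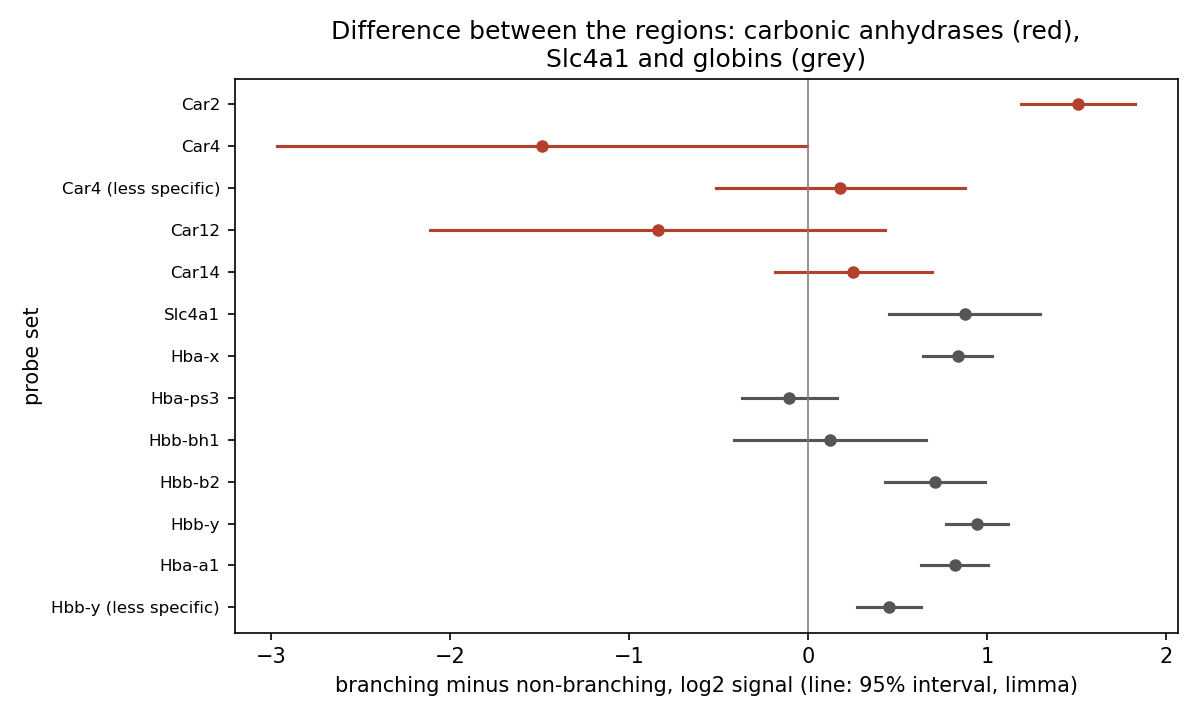
Difference between the regions (branching minus non-branching, log2 signal) with the 95% interval of the limma fit, not adjusted for the number of probe sets. Carbonic anhydrases not at background on every array are red, and Slc4a1 and the globins are grey. The intervals of Car14, of Car12 and of the less specific Car4 probe set include 0. That of the more specific Car4 probe set ends at -0.007, with 2 of its branching arrays at background. Its interval and that of Car12 are the widest among the red lines, and the point of Car2 is at 1.51.

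The patterns most like that of Car2 belonged to genes other than globins. Likeness was the root mean square difference between log2 signals over the 6 arrays, each gene centred on its own mean, among 6797 other genes. The 5 nearest were Plk2, which encodes a polo-like kinase (0.15), the MAP kinase phosphatase gene Dusp9 (0.17), the zinc finger gene Plagl1 (0.17), Phlda1 (0.18) and the extracellular matrix gene Tgfbi (0.18). Slc4a1 ranked 29, Hba-x 38, Hba-a1 46, Hbb-b2 88, Hbb-y 320 and Hbb-bh1 2477. Each gene was ranked by its brightest probe set, which for Hbb-y is the less specific one. The measure takes in the size of the regional difference, so genes with a much smaller difference than Car2, as the globins have, cannot be among the nearest. Their ranks are thus not a result separate from the larger difference of Car2.

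Genes that move bicarbonate, protons or water, and so work beside carbonic anhydrases, were counted as a list. Of 12 transporter genes tested, 0 were called by limma, where 2.03% of all probe sets were called. At that share, 0 calls in a list this short are not a result about its genes. Of the 18 with a probe set, 7 were at background on every array. An unadjusted p under 0.05 was reached by 2, namely Slc4a1 and Slc4a3. Slc4a3, another anion exchanger gene, had 751, 733 and 536 on the branching arrays, against 1023, 1242 and 1025 on the non-branching arrays. It lay lower on every branching array, and its difference of -0.71 ± 0.18 did not pass (limma adjusted p = 0.0816). The median of the transporter list was 0.09. Of 16 subunit genes of the vacuolar proton pump, 0 were called by limma, against the same 2.03%. Among them 1 had an unadjusted p under 0.05, and their median was -0.10. The 2 subunits with the smallest p were Atp6v0d1 (-0.47 ± 0.14, limma adjusted p = 0.142) and Atp6v1e1 (0.44 ± 0.20, limma adjusted p = 0.348).

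Markers of other cell types that the samples could hold were counted next. Of 5 osteoclast and macrophage markers tested, 0 were called by limma, against 2.03% of all probe sets. Among these 5, 0 had an unadjusted p under 0.05, and 4 had a positive difference (median 0.38). Csf1r, the receptor gene of these cells, averaged 375 in branching and 268 in non-branching (limma adjusted p = 0.404), and Mpeg1 did not pass (limma adjusted p = 0.523). At background on all 6 arrays were 6 of the 12 markers of that list, among them Ptprc and Itgam, and its summed signal was 1459 to 1774 on branching arrays and 1184 to 1500.1 on non-branching arrays. Of 15 markers of the lung tip and of epithelium tested, 1 rose (6.67%, against 2.03% of all probe sets called), the transcription factor gene Mycn, by 0.85 ± 0.15 (limma adjusted p = 0.0210, and 0.0885 without non-branching replicate 3), and the median was 0.15. An unadjusted p under 0.05 was reached by 5 of the 15. Besides Mycn these were Sftpc, the surfactant protein C gene (1.99 ± 0.49, limma adjusted p = 0.0807), and the claudin gene Cldn6 (0.62 ± 0.14, limma adjusted p = 0.0647), with positive differences. The transcription regulator genes Foxa2 (-0.62 ± 0.15, limma adjusted p = 0.0751) and Id2 (-0.45 ± 0.13, limma adjusted p = 0.136) had negative ones, and these 4 were named after their values were seen. The summed signal of the epithelial list was 11904 to 12661 on branching arrays and 11031 to 12015 on non-branching arrays.

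Of 7 glial markers tested, 1 fell (14.3%, against 2.03% of all probe sets called). It was the neural crest transcription factor gene Sox10, by 1.05 ± 0.15 (limma adjusted p = 0.00974). The median of the list was -0.03, with 3 positive and 4 negative. The glial list summed to 2196 to 2676 on branching arrays and 3223 to 3665 on non-branching arrays. Sox10 alone averaged 829 in branching and 1718 in non-branching. An unadjusted p under 0.05 was reached by 2 of the 7, Sox10 and Gfap, the latter named after its values were seen. Gfap, read by a less specific probe set, averaged 83.5 in branching and 267 in non-branching (limma adjusted p = 0.0637). It was at background on all 3 branching arrays, so at least 1.80-fold lower is all that can be given. Of 8 skeletal muscle markers tested, 2 fell (25%, against the same 2.03%), and the median was -0.06. They were the troponin genes Tnnt1, read by a probe set of less specific design (limma adjusted p = 0.00763, and 0.0550 without non-branching replicate 3) and Tnni1 (limma adjusted p = 0.0480, and 0.190 without non-branching replicate 3). In lists this short such shares rest on 1 or 2 genes. In a fit with no variance trend Sox10, Mycn and Tnni1 did not pass (limma adjusted p = 0.115, 0.119 and 0.201). Among neuronal markers 0 of 7 were called by limma, against 2.03% of all probe sets, and 2 had an unadjusted p under 0.05 (median -0.23). Gap43 and Uchl1 were the nearest (limma adjusted p = 0.277 and 0.290). Of the 14 neuronal markers with a probe set, 7 were at background on every array. Among liver and fat cell markers 0 of 5 were called by limma, against the same 2.03%, and 0 had an unadjusted p under 0.05 (median 0.46). Alb and Apoa2 were the nearest (limma adjusted p = 0.487 and 0.686). Of the 8 with a probe set, 3 were at background on every array, Apoa2 among them. Afp, whose difference is that median, was at background on 1 branching and 2 non-branching arrays. Signals near background limit what this median can tell. The part of any of these cells in the signal of the carbonic anhydrases was not tested.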

How the data were processed

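The deposited table holds a linear signal intensity per probe set and array. The authors' software and scaling are not given in the sources used. Of 12488 probe sets, 66 controls were left out; 10833 of the rest had 1 gene symbol, 396 several and 1193 none. Symbols were updated through gene identifiers, 10817 of which matched RefSeq. Values were raised to a floor of 16 before taking log2. The dimmest 25% of probe sets were left out and 9316 were tested (limma 3.58.1, R 4.3.3, a linear model of the 2 regions and eBayes with a variance trend, two-sided), adjusted by Benjamini-Hochberg over all of them. The test was checked on simulated data.

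All carbonic anhydrase and single-symbol globin probe sets are named. From each list up to 4 called genes are named by size of change, or, with no call, 2 by p. A gene in a list is represented by its brightest probe set. The 5 genes most like Car2 are also named. The members and lists were chosen with earlier results of these data known. Alternatives were a replicate block, other scalings, filters and floors, no variance trend, and each array left out.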

Additional observations from a re-analysis of the deposited data

How the results depend on the processing

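The difference of Car2 ran from 1.45 to 1.57 over the 14 alternatives. Its sign could not turn with 1 array left out, as every branching array was above every non-branching array. The block, the filters, the higher floor and the fit with no variance trend left its estimate as it was. The range is therefore a description only. Car14 and Car12 were not called under any alternative that tested them. Without branching replicate 2 the carbonic anhydrase probe sets called numbered 2, the added one being the more specific probe set of Car4 (limma adjusted p = 0.0428). Its fitted difference was then -2.35, but both branching arrays left were at background, so at least 1.90-fold lower is all that can be given; the fitted value ran up to -1.03 with another array left out. Leaving out each array gave 1 to 2 called members. The less specific probe set of Car4 turned sign, to -0.01 when branching replicate 3 was left out and to -0.069 without non-branching replicate 1, within a range up to 0.42. Hbb-bh1 turned to -0.072 when branching replicate 3 was left out and to -0.02 without non-branching replicate 3, within a range up to 0.38. The excess of Car2 over the globin mean was 0.97 with the pseudogene included, an alternative chosen after seeing the data; the pseudogene's own difference is below 0. It was 0.82 without the less specific globin probe set, also chosen then. Over all probe sets, 84 were higher and 105 lower in branching. These counts were 38 and 62 with dim probe sets kept, 5 and 17 without the variance trend, and 16 to 69 and 38 to 98 with each array left out; the cause was not tested. No shared deviation was seen between arrays of the same replicate number. Deviations from the regional means correlated at -0.0023, 0.013 and -0.015 in the 3 same-numbered pairs, and 0 of 6 arrays correlated best with its own number. With 3 arrays per region these values cannot tell if same-numbered samples came from the same lungs. With the replicate number as a block 44 were higher and 70 lower, and the 1 member called was Car2. As each region has the same replicate numbers, the block cannot change a difference, and that of Car2 was 1.51 by design. Of the results named, Hbb-b2 (limma adjusted p = 0.0678), the less specific probe set of Hbb-y (0.0777), Mycn (0.0684) and Tnni1 (0.0934) did not pass with the block. Signals near background limit what can be said of Car1, Car3, Car6, Car8 and Car12.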
